A study of Homo sapiens with 4 samples.

Results

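The genes described here are 10 antiviral effectors of the interferon response: MX1, MX2, RSAD2, IFI6, IFI27, IFI44, IFI44L, IFITM1, IFITM3 and BST2. They were chosen by name, all 10 were found among the 39323 genes of the tables, and 9 had a mean of at least 1 TPM (a share of the library's transcripts, corrected for gene length) over the 4 libraries, the level from which a gene was counted as tested. MX1, with a mean of 0.665 TPM, was below it. RD and JR1 are established lines of fusion-negative rhabdomyosarcoma, a childhood tumor of the muscle lineage. Both were infected with a pLKO.1-puro lentivirus, packaged in HEK293T cells, and selected in puromycin, and RNA was taken from cells with a non-targeting hairpin (shSCR, genotype WT in the labels) or with 1 hairpin against SKP2 (shSKP2, labelled SKP2 knockdown). Each line and condition gave 1 poly-A selected library, and untransduced cells and a second SKP2 hairpin were not analysed here. Every difference below is therefore a difference between 2 libraries with no replicate check and no p-value. A response to the virus common to both hairpins cannot be told apart from the basal state of the cells. A response to only 1 of the hairpins or virus preparations, shSCR included, cannot be told apart from an effect of lower SKP2. In bulk RNA, fewer cells that express a gene and less of its RNA per cell cannot be told apart.

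Interferons released by an infected cell bind receptors that signal through JAK kinases to STAT2 and IRF9, which take part in binding the interferon-stimulated response element (ISRE) at target genes. The products of these genes act at different steps of a viral life cycle. IFITM proteins sit in membranes and hinder the fusion of enveloped viruses, MX proteins are dynamin-like GTPases that trap viral nucleocapsids, RSAD2 (viperin) makes a nucleotide analogue that stops viral polymerases, and BST2 (tetherin) holds budding virions on the cell surface. Many tumor lines express some of these genes without added interferon.

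The members were lower with shSKP2 in both lines. All 10 had lower TPM in each knockdown library than in the control library of the same line, and their sum was 718 TPM against 247 TPM in RD and 865 TPM against 208 TPM in JR1. Changes are given as the difference of log2(TPM + 1), shSKP2 minus shSCR within a line, and "fell" is kept for a difference of at least 1, which is 2-fold on this scale. By this limit 7 of the 10 fell in RD, where 7.37% of 12985 tested genes fell and 1.08% rose, and 9 of the 10 fell in JR1, where 9.05% fell and 1.78% rose. Both lines showed the fall for the same 7 members, namely MX2, RSAD2, IFI6, IFI44, IFITM1, IFITM3 and BST2, against 4.79% of tested genes that fell in both. Of these, MX2, RSAD2 and BST2 were under 1 TPM in both shSKP2 libraries and passed the filter only through the shSCR libraries, so their place among the tested genes depends on the groups in which they were high. IFI27 was under 1 TPM in every library except JR1 shSCR (10.4 TPM) and passed the filter only through that one. Its fall in JR1 and its differences between the lines given below rest on that same library. MX1 and IFI27 were under 1 TPM in RD shSCR, so with 1 TPM added neither could fall in RD. The median change of the 10 was -1.29 in RD and -2.34 in JR1, beside -0.27 and -0.21 for all tested genes.

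**Figure D1:**
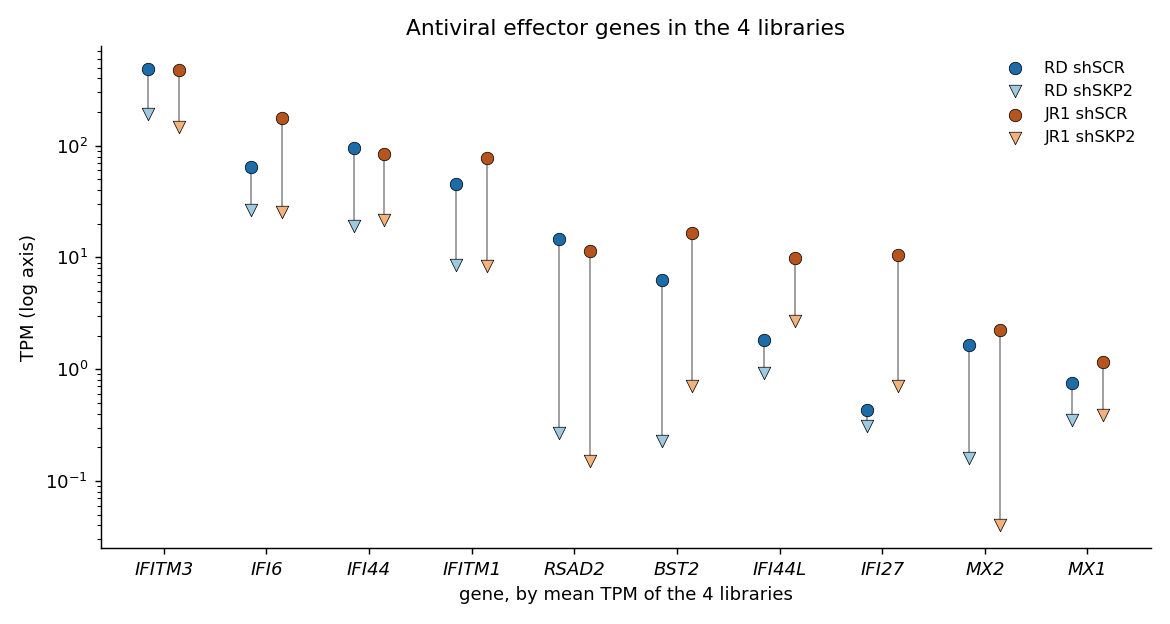
TPM of the 10 genes in each library, on a log axis, with circles for shSCR and triangles for shSKP2, 1 library each. Each triangle lies below the circle it is joined to, and the members span from 0.04 TPM (MX2 in JR1 shSKP2) to 488 TPM (IFITM3 in RD shSCR).

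The scale of the TPM moved between conditions and bears on the size of these changes. Short structural RNAs, picked by symbol and including the 7SL and 7SK RNAs, made up 58.6% (RD shSCR), 69.1% (RD shSKP2), 66.5% (JR1 shSCR) and 72.1% (JR1 shSKP2) of all TPM, which leaves less for all other genes. When these genes were removed and the rest rescaled to the same total, 5 members fell in RD and 9 in JR1, beside 3.45% and 7.48% of 15195 tested genes, and rises made up 56.0% and 39.5% of all changed genes in place of 12.8% and 16.4%. The medians of all tested genes were then 0.12 and 0.01. In RD, IFI6 (-0.83) and IFITM3 (-0.93) were then short of the limit. Centred on the median of tested genes, IFI6 (-0.96) and MX2 (-0.92) were short of it in RD, and rises made up 37.3% and 35.3% of changed genes. Centred on 20 housekeeping genes, IFI6 (-0.79), MX2 (-0.75) and IFITM3 (-0.91) were, and rises made up 59.5% and 29.3%. In JR1 the same 9 members stayed past the limit on each of these 3 scales. SKP2 itself, the target, was at 92.8 TPM without and 7.40 TPM with its hairpin in RD, and at 46.5 and 2.72 TPM in JR1. Of 12 muscle and rhabdomyosarcoma markers, MYOD1 was at 87.0 TPM or more and CHRNA1 at 196 TPM or more. MYF5 was listed at 0 in all 4 libraries, MYF6 had at most 0.5 TPM, and MYMK was at 1.22 TPM in RD shSCR. The 12 summed to 954 TPM in RD shSCR, 1379 in RD shSKP2, 1238 in JR1 shSCR and 2777 in JR1 shSKP2. ACTC1 alone was at 1741 TPM in JR1 shSKP2. The median change of the 10 tested was 0.35 in RD and 0.52 in JR1. Of 12 blood cell markers no value was above 0.860 TPM, their sum was 0.380 to 1.26 TPM, and CD3D, MS4A1, CLEC4C, TYROBP and HBB were listed at 0 in every library. Of 9 endothelial and epithelial markers, TEK and CLDN4 were above 1 TPM and the others under 1, and the list summed to 12.5 TPM in RD shSCR, 5.65 in RD shSKP2, 10.1 in JR1 shSCR and 3.88 in JR1 shSKP2. The endothelial and epithelial sums were lower with shSKP2 as the members were, and the muscle sums were higher. The part of either in the result was not tested.

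The promoters of the members were searched for the ISRE to show what they share in sequence. Promoter windows of 300 bases (250 before to 50 after an annotated start, RefSeq, GRCh38.p14) were found for 9 of the members, all except MX2. The core of the ISRE was searched as GAAA, any 2 bases, then GAAA, on both strands, overlapping matches included. Each of the 9 members held at least 1 match, beside 4.38% of the 27305 genes with a window and 3.57% of the 35116 windows. Matches lay at 17 places in all, and 7 of the 9 members had at least 2. The match nearest to a start is printed for each gene, with its other match for IFITM1 and IFITM3 and, for BST2, the first of an overlapping pair, as 30 bases in the direction of the gene, and the capitals mark the match. Positions count back from -1 at the base before the start and up from 1 at the start itself.
IFI6, match at bases -93 to -84, chr1:27672266-27672295, minus strand: gcagagtgcaGAAATAGAAActccgacagg
IFI44L, match at bases -73 to -64, chr1:78620365-78620394, plus strand: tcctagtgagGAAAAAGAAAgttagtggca
IFI44, match at bases -18 to -9, chr1:78649761-78649790, plus strand: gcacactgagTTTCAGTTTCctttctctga
RSAD2, match at bases -145 to -136, chr2:6877622-6877651, plus strand: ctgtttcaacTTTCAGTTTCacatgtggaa
MX1, match at bases 12 to 21, chr21:41420559-41420588, plus strand: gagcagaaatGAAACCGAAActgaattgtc
IFI27, match at bases -95 to -86, chr14:94110631-94110660, plus strand: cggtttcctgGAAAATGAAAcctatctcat
BST2, match at bases -130 to -121, chr19:17405741-17405770, minus strand: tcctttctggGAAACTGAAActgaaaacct
IFITM1, match at bases -40 to -31, chr11:313990-314019, plus strand: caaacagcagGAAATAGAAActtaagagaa
IFITM1, match at bases -6 to 4, chr11:314024-314053, plus strand: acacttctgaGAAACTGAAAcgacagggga
IFITM3, match at bases -52 to -43, chr11:320893-320922, minus strand: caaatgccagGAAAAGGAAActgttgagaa
IFITM3, match at bases -35 to -26, chr11:320876-320905, minus strand: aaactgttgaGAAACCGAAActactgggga

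In IFI6 the core occurred 3 times, between bases -156 and -84. The matches of IFI44L, at -164 and -73, lay in identical stretches of 30 bases, so its promoter carries the same sequence at 2 places. In BST2 the matches at -130 and -124 overlapped and formed a run of GAAA repeats. IFITM1 and IFITM3 each had 2 matches within 60 bases of the start, and the second of IFITM1 ran across it. IFI27 had 1 match on each strand, 13 bases apart, and the matches of IFI44 and RSAD2 were on the strand opposite to the gene. For RSAD2 the match belonged to the second of its annotated starts, at base 6877777, and the window at the first, at 6865885, held none. MX1 had 3 annotated starts, with a match 12 bases into the transcript at the first, none at the second, and 1 at -196 at the third. A second motif, the gamma-activated site, searched as TTC, any 3 bases, then GAA (its own reverse complement), was found in 4 of the 9 members, beside 9.38% of all genes with a window. In all 4 of them (IFITM1, IFI27, BST2 and the third start of MX1) it overlapped an ISRE match, and BST2 held another, at -58, that did not. The members were chosen as genes of the interferon response, so their share of matches describes that choice. These matches describe letters in a window and were not tested for binding.

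IFITM3 was the most abundant member in each library. It encodes an endosomal membrane protein that blocks viral entry, and lies on chromosome 11 from base 319676 to 320860 (GRCh38), in 2 exons. It stood above at least 98.9% of the genes above 0 TPM in every library. Its level was 488 TPM in RD shSCR and 473 TPM in JR1 shSCR, and 190.5 and 147 TPM with shSKP2. Both controls were thus alike and both knockdown libraries were lower, with 39.1% of the control level left in RD and 31.2% in JR1, changes of -1.35 and -1.68. IFITM3 alone made up 67.9% of the summed TPM of the members in RD shSCR and 54.7% in JR1 shSCR, and 77.2% and 71.0% with shSKP2.

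IFITM1, whose protein acts mainly at the plasma membrane, lies 4403 bases from IFITM3, from base 314040 to 315272. It was at 44.9 TPM in RD shSCR and 77.6 TPM in JR1 shSCR, and at 8.6 and 8.4 TPM with shSKP2. The control levels of the lines differed by 1.73 times and the knockdown levels were nearly equal, and IFITM1 fell by 2.26 in RD and by 3.06 in JR1. IFITM2, which is not a member and lies on the other side of IFITM1, was at 87.9 and 44.8 TPM in RD and at 76.8 and 28.3 TPM in JR1, shSCR before shSKP2 (-0.96 and -1.41). The 3 genes have similar sequences. The canonical GENCODE transcripts of IFITM1 and IFITM3 were each compared with the transcripts of 4 relatives, which included IFITM2, IFITM5 and IFITM10. No stretch of 150 bases, the length of a read, was shared. Of the words of 31 bases, 21.3% in IFITM1 and 28.9% in IFITM3 were shared. Other IFITM loci, such as pseudogenes, were not compared. A full read of 150 bases from these 2 transcripts thus differed from the relatives compared by at least 1 base, while a shorter aligned stretch may not. How far reads were divided between the genes by the estimate of RSEM cannot be seen in the TPM. The separate values of these genes may be less certain than their sum. IFITM5 stayed under 1 TPM in all libraries, and IFITM10 was at 2.43 and 2.67 TPM in RD and at 4.02 and 3.04 TPM in JR1, with neither change past the limit.

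MX1 and MX2 lie side by side on chromosome 21, with 10935 bases between them, and were the least abundant members by mean TPM. MX1, from base 41420329 to 41459214, which acts against influenza and many other RNA viruses, was at 0.760 and 0.350 TPM in RD and at 1.16 and 0.390 TPM in JR1, shSCR before shSKP2. Neither change passed the limit, at -0.38 and -0.64, although the TPM themselves differed by 2.17 and 2.97 times. MX2, from base 41361944 to 41409393, best known for its action on lentiviruses, was at 1.65 and 0.160 TPM in RD and at 2.22 and 0.0400 TPM in JR1, changes of -1.19 and -1.63. It passed the filter at a mean of 1.02 TPM only through its control libraries. At such levels the added 1 TPM shrinks the change. With 0.1 TPM added it was -2.75 in RD and -4.05 in JR1, and that of MX1 was -0.93 and -1.36. The related dynamins, which work in membrane traffic and not in defence, were not past the limit in either line, with DNM1 at -0.95 and -0.83 and DNM2 at -0.34 and -0.14.

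RSAD2 had the largest change of the members in both lines. It lies on chromosome 2 from base 6865733 to 6898239, in 6 exons. Its level was 14.5 TPM in RD shSCR and 11.5 TPM in JR1 shSCR, against 0.270 and 0.15 TPM with shSKP2, so that 1.86% and 1.31% of the control level was left. The changes of -3.61 and -3.44 stood at places 11 and 28 from the lowest among the 12985 tested genes. CMPK2, a mitochondrial nucleotide kinase transcribed from the neighbouring locus, fell as well, with a change of -1.79 in RD (6.04 to 1.04 TPM) and -2.14 in JR1 (4.57 to 0.260 TPM). It is counted among the other effectors too. The listed spans of the 2 genes overlap by 903 bases, and whether strand was used in the counting is not given in the sources used here.

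BST2, on chromosome 19 from base 17402939 to 17405630, had the next largest change in both lines. It was at 6.30 TPM in RD shSCR and 16.6 TPM in JR1 shSCR and at 0.230 and 0.700 TPM with shSKP2, which left 3.65% and 4.23%. Its changes were -2.57 and -3.37. MVB12A, which lies 110 bases away and takes part in the sorting of membrane cargo, fell in RD (16.8 to 7.19 TPM, -1.12) and was short of the limit in JR1 (13.9 to 7.65 TPM, -0.78). On the 3 other scales MVB12A was short of it in RD too, at -0.85 to -0.68. PLVAP, on the other side, had at most 0.0200 TPM in any library.

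IFI44 and IFI44L are neighbours on chromosome 1, with 2797 bases between them, yet were expressed at different levels. Both are interferon-induced proteins with antiviral activity in culture. IFI44, from base 78648943 to 78664078, was at 95.9 TPM in RD shSCR and 85.0 TPM in JR1 shSCR, and at 19.0 and 21.5 TPM with shSKP2, changes of -2.28 and -1.94. IFI44L, from base 78620412 to 78646145, was at 1.84 and 0.930 TPM in RD and at 9.93 and 2.71 TPM in JR1. It fell in JR1 (-1.56) and was short of the limit in RD (-0.56). No word of 31 bases in the transcript of either was found in the other.

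IFI6 and IFI27 encode small hydrophobic proteins of the same family, found in the endoplasmic reticulum and mitochondria. IFI6, on chromosome 1 from base 27666061 to 27672229, was at 63.8 TPM in RD shSCR and 178 TPM in JR1 shSCR, but at 26.6 and 25.7 TPM with shSKP2. The change was -1.23 in RD and -2.74 in JR1. IFI27, on chromosome 14 from base 94110736 to 94116690, was at 10.4 TPM in JR1 shSCR and under 1 TPM in the other 3 libraries, at 0.430 in RD shSCR, 0.310 in RD shSKP2 and 0.710 in JR1 shSKP2. It fell by 2.74 on the log2 scale in JR1. In RD its change was -0.13, and it became 0.14 when centred on all tested genes and 0.31 when centred on the housekeeping genes, so that it has no direction there. MX1 in RD was 0.06 on the last of these scales, and all other values of the 10 members stayed below 0 under every scaling tried. The relatives of IFI27 at the same locus were also lower in JR1, IFI27L1 from 7.32 to 2.55 TPM (-1.23) and IFI27L2 from 12.2 to 4.8 TPM (-1.19, or -0.98 when centred on all tested genes), and in RD their changes were -0.42 and -0.01.

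The lines were then set against each other within a condition, as RD minus JR1 on the log2(TPM + 1) scale. In the control libraries 4 members were lower in RD than in JR1 by at least 1, where 3.45% of tested genes were lower and 6.5% higher. They were IFI27 (-3.0, with 24.3 times more TPM in JR1), IFI44L (-1.94, 5.40 times), IFI6 (-1.46, 2.78 times) and BST2 (-1.27, 2.63 times). No member was higher in RD by that much, and RSAD2 (0.31), IFI44 (0.17) and IFITM3 (0.05) were the 3 above 0. With shSKP2 no member was past the limit, where 2.7% of tested genes were lower and 5.39% higher in RD. The differences then ran from -0.94 for IFI44L to 0.37 for IFITM3, with a median of -0.01. MX1, MX2, RSAD2, IFI27 and BST2 were under 1 TPM in both shSKP2 libraries, so with 1 TPM added they could not pass the limit. In plain TPM, MX2 was 4 times higher in RD, and BST2, IFI44L and IFI27 were 3.04, 2.91 and 2.29 times higher in JR1. The count of members past the limit depends on the added value and the scale: with 0.1 TPM added it was 2, and after removal of the short structural RNA genes it was also 2. Replicates would be needed to say which neighbours in these orders differ.

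The same values can be read as a difference of the changes. The change was at least 1 lower in JR1 than in RD for IFI27 (a difference of 2.62), IFI6 (1.51) and IFI44L (1.00, at the limit), beside 1.57% of tested genes, and for no member was it at least 1 lower in RD, beside 1.19%. IFI44 (-0.34) and RSAD2 (-0.17) were the members with the lower change in RD. IFI27 was at 0.430 TPM in RD shSCR and could not fall by 1 there, so its difference follows from its control levels. The set also depends on the added value. With 0.1 TPM added, the changes of IFI44L in RD and JR1 (-0.91 and -1.84) were less than 1 apart, and those of MX2 (-2.75 and -4.05) were more. With 1 library per group the difference of changes cannot be tested. The order of the members by level was similar in all libraries, with IFITM3 first and IFI6, IFI44 and IFITM1 in places 2 to 4. These 4 genes held 96.4% of the summed TPM of the members in RD shSCR and at least 94.0% in any library. Below them the order changed with the knockdown. RSAD2 went from place 5 to 8 in RD and from 6 to 9 in JR1, and BST2 from 6 to 9 and from 5 to 7, while IFI44L went from 7 to 5 and from 8 to 5.

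The rest of the interferon pathway was read from lists written from general knowledge, with earlier results of these data known. Their counts are therefore a description and not an independent check. Of 21 interferon genes, 18 were listed at 0 in all libraries. IFNL1 was at 1.11 TPM in RD shSCR and 2.35 TPM in JR1 shSCR and at 0.0800 and 0 TPM with shSKP2, IFNB1 had at most 0.0800 TPM and IFNK at most 0.0900 TPM, and none was tested. Of the 9 receptor chains and kinases 8 were tested, and 1 fell in RD and none in JR1, beside 7.37% and 9.05% of all tested genes. Their medians were -0.29 and -0.22, near those of all genes. The one that fell was IFNGR2, a chain of the interferon gamma receptor, from 13.8 to 5.43 TPM (-1.20), and it was -0.92 in JR1. It was no longer past the limit in RD after any of the 3 rescalings. IFNAR1, a chain of the type I receptor, was at 7.15 and 6.61 TPM in RD and at 9.20 and 11.5 TPM in JR1, and JAK1 was at -0.38 and -0.60.

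All 6 transcription factors on the list were tested, and 1 fell in RD and 4 in JR1, beside 7.37% and 9.05% of all tested genes. Their medians were -0.88 and -1.54, and the same counts fell on each of the 3 other scales. STAT2 fell in both lines, with 39.6 and 13.9 TPM in RD (-1.44) and 58.0 and 16.6 TPM in JR1 (-1.74). IRF7, an amplifier of interferon production, was at 8.85 and 4.61 TPM in RD (-0.81) and at 12.2 and 2.83 TPM in JR1 (-1.78). IRF9 was at -0.94 and -1.52 and IRF1 at -0.96 and -1.56, while IRF2 (0.20 and 0.06) and IRF3 (-0.57 and -0.79) were within the limit. Among the 4 tested feedback inhibitors none fell in RD and 2 fell in JR1, beside the same shares of all tested genes. The 2 were SOCS3 (-0.93 and -1.36) and USP18, the protease that removes ISG15 (-0.88 and -1.34). Both stayed past the limit in JR1 on the 3 other scales. In lists this short 1 gene moves the share strongly, and the counts were not tested.

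Of 50 other interferon-stimulated effectors 44 were tested. In RD 23 fell and in JR1 32, none rose in either, and 23 fell in both, beside 7.37%, 9.05% and 4.79% of all tested genes that fell in RD, in JR1 and in both. Without short structural RNA genes 19 fell in RD and 31 in JR1, beside 3.45% and 7.48% of all tested genes. Centred on all tested genes the counts were 19 and 27, beside 3.53% and 5.47%. Centred on the housekeeping genes they were 17 and 28, beside 2.35% and 6.35%. On the deposited scale the medians of the 44 were -1.20 and -1.55, which is nearer to those of the members than to those of all genes. The lowest by the mean of both lines were OASL (-5.75 and -5.14), IFIT2 (-4.29 and -4.15), IFIT3 (-4.21 and -3.85), OAS2 (-3.17 and -3.73) and IFIT1 (-2.67 and -3.56). IFIT1 binds viral RNA in a complex with IFIT2 and IFIT3, and OAS2 and OASL belong to the family of oligoadenylate synthetases. At the other end were SP110 (0.11 and -0.22), IFI16 (0.03 and -0.27), EIF2AK2 (-0.12 and -0.25), TRIM21 (-0.06 and -0.45) and TRIM14 (-0.36 and -0.23), so a fall was not common to every gene that interferon can induce. EIF2AK2 encodes the kinase PKR, which halts translation on double-stranded RNA. The ISRE core was found in 25 of the 42 effectors with a promoter window (59.5%) and in 5 of 18 interferon genes. It was in none of 8 receptors and kinases, in none of 3 transcription factors, and in 1 of 16 housekeeping genes. The effectors were listed as interferon-stimulated genes, so their share describes that choice and not a result of the knockdown. Among tested genes with a window it was in 6.90% of the 478 that fell in both lines and in 3.62% of the other 9612. The 478 include members and listed effectors that fell in both lines, which were chosen as interferon-stimulated genes. The share without them was not counted, so these 2 shares do not describe fallen genes in general.

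Genes with the most similar pattern were sought for each member, as the 3 tested genes at the smallest Euclidean distance over the 4 log2(TPM + 1) values, each gene centred on its own mean. The distance uses the same values in which members and listed genes fell, so the genes nearest to a fallen member are fallen genes by construction. Of the 30 places 3 (10%) went to a member or to a gene of the lists of effectors or transcription factors. The members and these lists hold 59 of the tested genes (0.454%), a share that is not a matched comparison for the 10%. A share among fallen genes only was not counted. The 3 were PARP14 for IFITM3, at a distance of 0.06, and OAS2 and ISG15 for RSAD2, at 0.50 and 0.59. PLAAT4 was the nearest to RSAD2 (0.48), AEBP1, which encodes a protein of the extracellular matrix, to IFITM1 (0.21) and to BST2 (0.39), PMAIP1, a pro-apoptotic BH3 protein, to IFI44 (0.20), and CCN1, a matricellular protein, to IFI6 (0.26). For the low members the nearest genes were WDR3 for MX1 (0.02), MFSD1 for MX2 (0.05), AGAP2 for IFI44L (0.05) and SNORA59B for IFI27 (0.52), the last a small nucleolar RNA listed at 0 in 3 of the libraries. The added 1 TPM shrinks the pattern of low members, so a small distance need not mean similar folds. MX2 kept 9.70% of its control TPM in RD and 1.80% in JR1, while MFSD1 went from 9.26 to 3.45 and from 11.9 to 3.02 TPM. PMAIP1 was at 92.7 and 20.9 TPM in RD and at 88.6 and 19.5 TPM in JR1, close to the levels of IFI44 as well as to its changes. The distances rest on 4 libraries and are a description.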

How the data were processed

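Poly-A selected RNA was sequenced in pairs of 150 bases. Reads were aligned by the authors with STAR 2.7.9a (GRCh38), and they deposited TPM estimated with RSEM 1.3.2. The annotation they counted on is not given in the sources used here. TPM carry no read numbers, so depth is unknown and no counting interval was possible. The deposited TPM were used without further normalization, grouped by sample title. Differences were taken on the log2(TPM + 1) scale, genes averaging 1 TPM or more were tested, and differences of at least 1 were counted. With 1 library per group no test was run. The members and gene lists were chosen with earlier results of these data known, and the study's lists of changed genes were not used. The text names all members, SKP2, listed pathway genes, relatives and neighbours, the 5 highest and 5 lowest other effectors by mean change, and the nearest gene of each member. A gene of the transcription factor list is not reported here and was left out of its counts. List symbols were matched by name or RefSeq synonym. Exons and shared words came from canonical GENCODE 44 transcripts, and promoters from RefSeq. Alternatives were a pseudocount of 0.1 TPM, 2 centrings, removal of short structural RNA genes by symbol, minimum means of 0 and 5 TPM, and limits of 1.5-fold and 4-fold. Python 3.11.15, numpy 2.4.6, pandas 2.3.3 and matplotlib 3.10.9 were used.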

Additional observations from a re-analysis of the deposited data

Results flagged for a closer look

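On the deposited scale none of the 10 antiviral effectors had opposite directions in RD and JR1, although the values of IFI27 and MX1 in RD were above 0 under the centrings given for them. Among tested genes of the receptor, transcription factor, inhibitor, relative and neighbour lists and the 10 other effectors at the ends of their order, 6 had a change of opposite sign in the lines, each with 1 library per condition, and the difference was not tested. The change in RD minus the change in JR1 was 0.30 for IFI16, 0.41 for IFITM10 and 0.33 for SP110, which were above 0 in RD and below 0 in JR1. It was -0.40 for IFNAR1, -0.21 for IFNGR1 and -0.47 for PIAS1, which were below 0 in RD and above 0 in JR1. None of these 6 genes passed the limit of 1 in either line.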

How the results depend on the processing

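Of 112 values of single members under the alternatives, 109 kept their sign and 104 their side of the limit of 1. The 3 that changed sign were those of IFI27 and MX1 in RD, given above. The median change of the members in RD was -1.84 with 0.1 TPM added, -1.02 and -0.85 when centred on all tested genes and on the housekeeping genes, -1.32 without short structural RNA genes, and -2.27 over the 6 members with a mean of 5 TPM. In the same order it was -2.99, -2.12, -2.19, -2.63 and -2.90 in JR1. Centred on the housekeeping genes, 4 members fell in RD, beside 2.35% of tested genes. With a limit of 4-fold 4 fell in RD and 5 in JR1, 1 was lower in RD than in JR1 in shSCR, 1 differed between the lines in its change, 9 and 14 of the other effectors fell in RD and JR1, and 0 transcription factors and 0 receptors did in RD, as did 0 transcription factors in JR1. With a limit of 1.5-fold 1 member differed between the lines in shSKP2 and 5 in their change, 4 transcription factors and 2 receptors or kinases fell in RD, and 3 receptors or kinases in JR1. With 0.1 TPM added 3 transcription factors fell in RD, where 10.9% of tested genes fell. Of all tested genes 0.63% fell in RD and 0.99% in JR1 with a limit of 4-fold. With a limit of 1.5-fold these shares were 23.2% and 23.4%. The 2 receptors or kinases that fell in RD at that limit, of 8 tested, were near this share. Members that differed between the lines in shSKP2 numbered 2 with 0.1 TPM added, 2 without short structural RNA genes and 1 with either centring. With a minimum mean of 5 TPM, 2 members were lower in RD in shSCR and 1 differed in its change, because fewer members were counted. The shares of all tested genes that differed between the lines under the alternatives were not counted. Receptors and kinases that fell in RD numbered 0 under either centring and without short structural RNA genes. The labels give no replicate numbers. Each change was taken within a line, and no test over the 2 lines as pairs was run. The depth is unknown, so values under 1 TPM carry an unknown counting error. They include the shSKP2 values of MX1, MX2, RSAD2, BST2 and IFI27 in both lines, on which the folds and shares left of these genes rest.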
